A study of Homo sapiens with 4 samples.

Results

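The circadian clock genes described here are 10 genes of the feedback loops that time gene expression to the day: the period genes PER1, PER2 and PER3, the cryptochrome genes CRY1 and CRY2, the nuclear receptor genes NR1D1 and NR1D2, the repressor genes BHLHE40 and BHLHE41, and the output factor gene DBP. They were taken by gene symbol from a table of 62893 Ensembl genes, and all 10 were found and passed the filter on low counts, which 16889 genes passed. They were measured in T24 cells, an established cell line that was derived from a bladder carcinoma. One group of libraries came from cells given control siRNA (siControl, 2 libraries) and the other from cells given siRNA against NSUN2 (siNSUN2, 2 libraries). NSUN2 encodes an RNA methyltransferase that makes 5-methylcytosine. Both groups are the same line and both received siRNA, and the labels name no further treatment. Nothing in the labels says that the cells were synchronised or at what hour they were harvested, so the values are levels in a bulk culture at an unstated time and give no phase or rhythm. The labels do not say whether the replicates were separate cultures, so p-values measure only how these libraries scatter, and that scatter may be technical.

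In the clock, the proteins CLOCK and BMAL1 bind DNA together at E-boxes and switch on the PER and CRY genes, whose products return to the nucleus and block CLOCK and BMAL1. The same pair drives NR1D1 and NR1D2, which encode REV-ERB alpha and beta, haem-binding nuclear receptors that repress BMAL1 in turn. BHLHE40 and BHLHE41 encode DEC1 and DEC2, which compete for E-boxes, and DBP encodes a PAR bZIP activator that works at D-boxes. In cultured cells these genes also answer to outside signals, PER1 among them to cAMP signalling and glucocorticoids.

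The letters of these elements were searched in promoter windows from RefSeq (GRCh38.p14), 250 bases before to 50 bases after a start site. All 10 genes had an entry, with 13 windows in all. The E-box CACGTG, a palindrome, was in the window of 4 members, PER1, NR1D2, BHLHE40 and BHLHE41, and in 7.26% of all 35116 windows. The 30 bases around each match are shown, with the E-box in capitals. These 4 genes are among those that rose, but PER2, PER3, CRY2 and NR1D1 also rose and had no CACGTG in their windows. A link between the E-box and the changes was not tested.
PER1 E-box, chr17:8152560-8152589, minus strand: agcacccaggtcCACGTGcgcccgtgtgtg
NR1D2 first E-box, chr3:23945954-23945983, plus strand: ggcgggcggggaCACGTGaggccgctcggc
NR1D2 second E-box, chr3:23946004-23946033, plus strand: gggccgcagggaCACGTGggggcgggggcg
BHLHE40 E-box, chr3:4979187-4979216, plus strand: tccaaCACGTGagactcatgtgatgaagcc
BHLHE41 E-box, chr12:26125068-26125097, minus strand: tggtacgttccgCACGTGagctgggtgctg
The E-boxes begin 173 bases before the start site in PER1, 155 and 105 in NR1D2, 245 in BHLHE40 and 48 in BHLHE41.

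The related word CACGTT, searched on both strands, was in a window of PER2, CRY1, CRY2 and NR1D1 and in 5.34% of all windows. The D-box, searched as TTATGTAA or TTACGTAA on both strands, was in a window of PER2, PER3 and NR1D2 and in 1.01% of all windows. The lines that follow show these matches. CRY1 had no stable direction, and the other genes shown rose. A link between these words and the changes was not tested. Capitals mark CACGTT, which reads AACGTG where it lies on the other strand, or the D-box.
CRY1 CACGTT word, chr12:107093621-107093650, minus strand: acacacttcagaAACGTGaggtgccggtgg
CRY2 CACGTT word, chr11:45847275-45847304, plus strand: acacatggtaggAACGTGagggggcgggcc
NR1D1 CACGTT word, chr17:40100740-40100769, minus strand: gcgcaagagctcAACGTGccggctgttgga
PER2 CACGTT word, chr2:238288790-238288819, minus strand: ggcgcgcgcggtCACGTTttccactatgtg
PER2 D-box, chr2:238288595-238288624, minus strand: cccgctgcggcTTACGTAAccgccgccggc
PER3 D-box, chr1:7784103-7784132, plus strand: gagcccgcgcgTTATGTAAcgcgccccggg
NR1D2 D-box, chr3:23945916-23945945, plus strand: gtgacgcggcaTTACATAAtgggcgctgag
The cAMP response element TGACGTCA was in 0 of the 13 windows and in 1.85% of all windows. Its shorter core TGACG, which the full element contains, was in 6 of the 13 windows, those of PER2, CRY1, CRY2 and NR1D2, and in 24.6% of all windows. The core AGGTCA of the elements bound by REV-ERB and ROR receptors was in 3 of the 13 windows, of PER1 and CRY2, and in 13.8% of all windows. DBP had none of these words in its window. In BHLHE40 and CRY1, all 250 bases before the start site used here are annotated as exon of the same gene, so their matches lie in an annotated exon of another transcript. The other windows have 0 to 136 such bases, among them 136 in NR1D1, 126 in the second window of CRY2 and 90 in BHLHE41. Matches in those windows may also lie in an exon, and which of them do was not checked. A match is a match of letters, and no binding was measured in these libraries.

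The 4 libraries held 33633249 to 215936965 counts. NSUN2 fell from 283 ± 2.53 to 29.9 ± 0.366 CPM (read counts relative to the size of the library, adjusted by TMM factors, mean ± SD, n = 2 per group here and below). Of 13 markers of urothelial and epithelial cells, KRT7, KRT8 and KRT18 were abundant, while 9, among them KRT5, KRT19, GATA3, UPK2, EPCAM and CDH1, were under 1 CPM in every library, and one of these 9, UPK3A, was at 0. UPK1B, a uroplakin gene, was at 3.86 and 4.18 CPM in siControl and fell to 1.62 and 2.07 CPM in siNSUN2 (log2 ratio −1.13, edgeR adjusted p = 7.67e-04). KRT7 was called higher (log2 ratio 0.29, edgeR adjusted p = 2.18e-04). So was KRT17, at 0 CPM in siControl and 0.196 and 0.234 CPM in siNSUN2. KRT8 and KRT18 were not called. With trends on GC content and length removed, KRT7, KRT8 and KRT18 were called lower (−0.24, −0.34 and −0.35). The 13 markers of leukocytes, endothelium, red cells and fibroblasts summed to 1.66 to 1.74 CPM in siControl and to 3.79 and 15.7 CPM in siNSUN2 replicates 1 and 2. In siNSUN2 replicate 2, the endothelial genes VWF and CDH5 stood at 8.73 and 1.87 CPM, the haemoglobin gene HBB at 2.66 CPM and the leukocyte gene PTPRC at 0.584 CPM. In siNSUN2 replicate 1, VWF was at 1.80, CDH5 at 0.577, HBB at 0 and PTPRC at 0.0436 CPM. VWF was at 0.113 to 0.165 and CDH5 at 0.282 to 0.471 CPM in siControl, while PECAM1, also endothelial, was at 0 in every library. In bulk RNA, fewer cells of a type and less RNA per cell cannot be told apart.

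After NSUN2 siRNA, 8 of the 10 clock genes rose, 1 (CRY1) fell and DBP was not called (edgeR quasi-likelihood test, Benjamini-Hochberg adjusted p under 0.05 over all genes tested). Across all genes tested, 27.1% were called higher and 25.5% lower. The median log2 ratio (siNSUN2 to siControl) was 0.83 over the clock genes and 0.026 over all genes tested. A rise of 2-fold or more was called in 4 members, NR1D1, PER1, PER2 and CRY2, against 5.5% of all genes. In 9 members both siNSUN2 libraries lay above both siControl libraries, which held for 38.6% of all genes, and in CRY1 both lay below. Transcript GC content moved with the changes: the median log2 ratio was −0.21 over the 4072 genes tested that were lowest in GC content and 0.45 over the 4072 that were highest. Members ran from 37.2% GC (CRY1) to 62.7% (PER1), against a median of 47.8% for all genes tested. After a correction that removes such trends on GC and length (called GC correction here), 9 members were called higher and 0 lower, against 23.3% of all genes called higher and 23.5% called lower, and the median stayed at 0.83. A rise of 2-fold or more remained in 2 of the 4, NR1D1 and PER2, against 3.29% of all genes, while PER1 and CRY2 were at 1.79-fold and 1.90-fold. The part of GC content in the results was not tested beyond that correction.

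**Figure D1:**
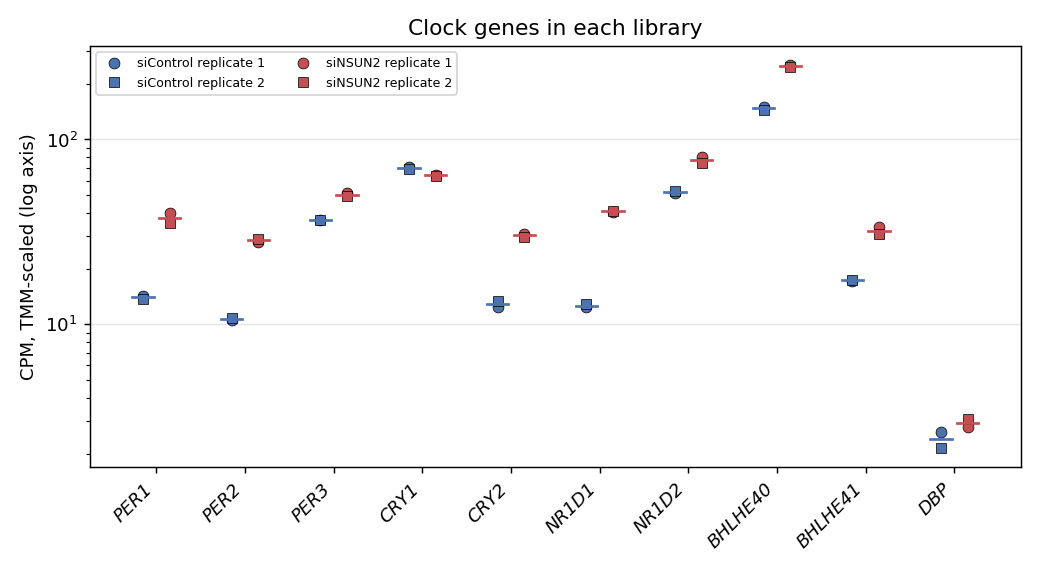
Level of each clock gene in each library, in CPM on a log axis; circles are replicate 1, squares replicate 2, and short lines the mean of a group. PER1, PER2, CRY2 and NR1D1 sit between 10.5 and 14.3 CPM in siControl and between 28.0 and 41.2 CPM in siNSUN2, while CRY1 and DBP move little.

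The period genes encode the PAS-domain proteins that carry the cryptochromes into the nucleus. PER1 (ENSG00000179094) stood at 14.3 and 13.7 CPM in siControl replicates 1 and 2 and at 40.0 and 35.5 CPM in siNSUN2 replicates 1 and 2. Both knockdown libraries were far above the controls, with a log2 ratio of 1.44 (SE 0.071, adjusted p = 4.06e-07), or 2.71-fold. PER1 has the highest GC content of the members, and its log2 ratio was 0.84 (adjusted p = 3.87e-05) after GC correction. Without siNSUN2 replicate 2, the library with the most VWF, the log2 ratio of PER1 was 1.53. VWF was also above siControl in siNSUN2 replicate 1 (1.80 CPM), which stayed in that fit.

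PER2 (ENSG00000132326), the partner gene of PER1 in the core loop, stood at 10.5 and 10.8 CPM in siControl and at 28.04 and 29.01 CPM in siNSUN2. The groups were well apart, and PER2 rose by almost the same factor as PER1, 2.66-fold (log2 ratio 1.41, SE 0.062, adjusted p = 2.27e-07). After GC correction PER2 was at 1.28 (95% interval 1.13 to 1.42) and so above the interval of PER1, 0.69 to 1.00. PER3 (ENSG00000049246), which in the textbook clock is less needed for the rhythm than PER1 and PER2, stood at 36.6 and 36.9 CPM in siControl and at 51.2 and 49.3 CPM in siNSUN2. It also rose, by 1.37-fold (log2 ratio 0.45, SE 0.046, adjusted p = 3.15e-05). Per kilobase of exon, PER3 was 2.22 and 2.33 times as abundant as PER1 in the siControl libraries and 1.11 and 1.199 times in the siNSUN2 libraries. The ratio of PER2 to PER1 was 0.751 and 0.807 in siControl and 0.713 and 0.831 in siNSUN2, so that the groups overlapped. With 2 libraries per group, the smallest two-sided p of an exact permutation test is 0.333, and such ratios were not tested. They are also without GC correction, after which the log2 ratios of PER3 and PER1 to siControl were 0.53 and 0.84.

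The cryptochrome genes encode the repressors that bind CLOCK and BMAL1 directly, and they did not move together. CRY2 (ENSG00000121671) stood at 12.4 and 13.4 CPM in siControl and at 31.0 and 29.9 CPM in siNSUN2, a rise of 2.36-fold (log2 ratio 1.24, SE 0.065, adjusted p = 5.50e-07). After GC correction the log2 ratio of CRY2 was 0.92. CRY1 (ENSG00000008405) stood at 71.2 and 69.3 CPM in siControl and at 64.4 and 63.3 CPM in siNSUN2. Both knockdown libraries were slightly below the controls, and CRY1 fell by 0.14 on the log2 scale (SE 0.042, adjusted p = 0.0209). That direction turned after GC correction, to 0.15 (adjusted p = 0.0112), and the call was lost without siNSUN2 replicate 2 (−0.12, adjusted p = 0.0853), so the data give no stable direction for CRY1. The 95% interval of its log2 ratio, −0.23 to −0.042, and the corrected one, 0.066 to 0.24, both lie far below the change of CRY2. Without GC correction, CRY1 was 7.03 and 6.36 times as abundant as CRY2 per kilobase of exon in siControl. In siNSUN2 it was 2.55 and 2.60 times as abundant.

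**Figure D2:**
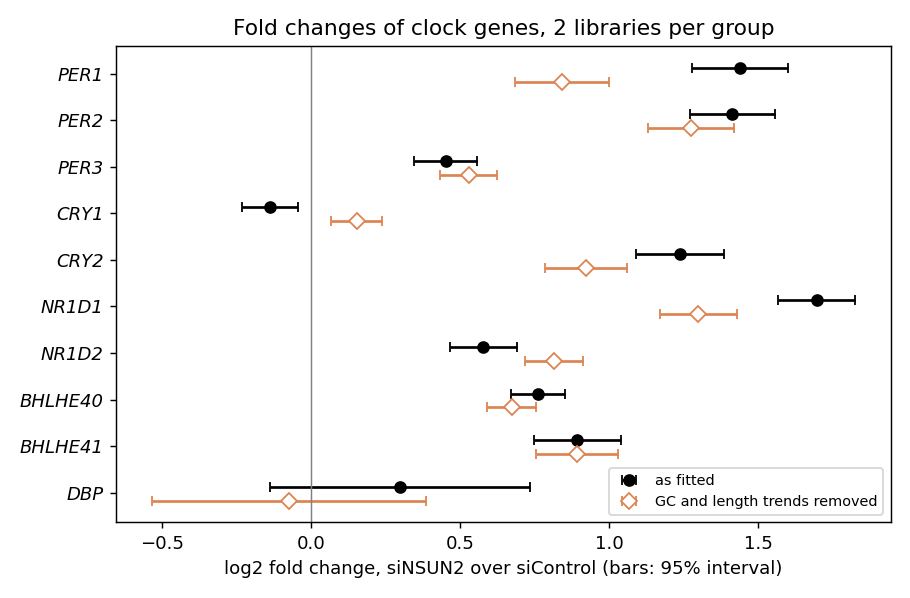
Log2 ratio of siNSUN2 to siControl for each clock gene, with 95% intervals, as fitted (filled) and with GC and length trends removed (open). NR1D1 is the highest at 1.70, and CRY1 and DBP change sign between the fits.

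The REV-ERB genes encode the receptors of the second loop, which repress BMAL1 by recruiting corepressors. NR1D1 (ENSG00000126368) had the largest change of the 10: it stood at 12.4 and 12.8 CPM in siControl and at 40.7 and 41.2 CPM in siNSUN2. That is a rise of 3.24-fold (log2 ratio 1.70, SE 0.057, adjusted p = 6.89e-08), and 1.97% of all genes tested had a larger log2 ratio. The log2 ratio was 1.30 after GC correction. The end of NR1D1 overlaps that of THRA, a thyroid hormone receptor gene on the opposite strand, over 263 of its 2772 exon bases. THRA stood at 8.90 and 7.83 CPM in siControl and at 8.78 and 8.15 CPM in siNSUN2, so its groups overlapped. It was not called (log2 ratio 0.023, adjusted p = 0.882), but after GC correction it was called lower (−0.45, adjusted p = 0.0106).

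NR1D2 (ENSG00000174738), the close relative of NR1D1, stood at 51.6 and 52.4 CPM in siControl and at 80.6 and 74.5 CPM in siNSUN2. It rose by 1.49-fold (log2 ratio 0.58, SE 0.049, adjusted p = 9.38e-06). NR1D2 is poor in GC (38.5%), and its log2 ratio was larger, 0.82, after GC correction. Without GC correction, NR1D2 was 1.98 and 1.95 times as abundant per kilobase of exon as NR1D1 in siControl. In siNSUN2 it was 0.943 and 0.862 times as abundant, so that NR1D1 passed its relative on these uncorrected levels. The log2 ratios of NR1D1 and NR1D2 to siControl, 1.70 and 0.58, came closer after GC correction, at 1.30 and 0.82. Whether NR1D1 also passed NR1D2 after the correction was not tested.

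The DEC genes encode basic helix-loop-helix repressors that are also induced by hypoxia, serum and differentiation signals. BHLHE40 (ENSG00000134107) was the most abundant member per kilobase of exon, and stood at 150 and 145 CPM in siControl and at 252 and 247 CPM in siNSUN2. It rose by 1.70-fold (log2 ratio 0.76, SE 0.040, adjusted p = 5.13e-07). BHLHE41 (ENSG00000123095) stood at 17.3 and 17.4 CPM in siControl and at 33.6 and 30.7 CPM in siNSUN2, a rise of 1.86-fold (log2 ratio 0.89, SE 0.064, adjusted p = 3.35e-06). The GC correction left both almost where they were, at 0.67 and 0.89. The ratio of BHLHE40 to BHLHE41 per kilobase of exon was 8.91 and 8.58 in siControl and 7.72 and 8.29 in siNSUN2.

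DBP (ENSG00000105516), the output factor that carries clock timing to D-box genes, was the lowest of the 10 genes. It had 112, 455, 256 and 105 counts in siControl replicates 1 and 2 and siNSUN2 replicates 1 and 2, or 2.64, 2.14, 2.79 and 3.07 CPM. The groups did not overlap, but the difference did not pass the test (log2 ratio 0.30, SE 0.19, adjusted p = 0.232), and it was −0.074 after GC correction. The 95% interval of DBP, −0.14 to 0.73, holds the log2 ratios of PER3 and NR1D2 and lies below those of the other 6 genes that rose. DBP shares 661 of its 6544 exon bases with SPHK2, a sphingosine kinase gene on the opposite strand, which rose from 9.59 ± 0.181 to 17.6 ± 0.867 CPM (log2 ratio 0.88, adjusted p = 9.19e-06, and 0.29 after GC correction). The strand setting of the counting is not given in the sources used here, so reads of such overlaps may have been lost or assigned to either gene. The other overlapping genes with values in the table (UTS2 and Z98884.1 for PER3, SSPN for BHLHE41, BHLHE40-AS1 for BHLHE40, AC012485.1 for PER2, AC078929.1 for CRY1 and AC129492.3 for PER1) were at 1.11 CPM or less in every library. MIR6883 lies in exons of PER1 and was not analysed here.

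**Figure D3:**
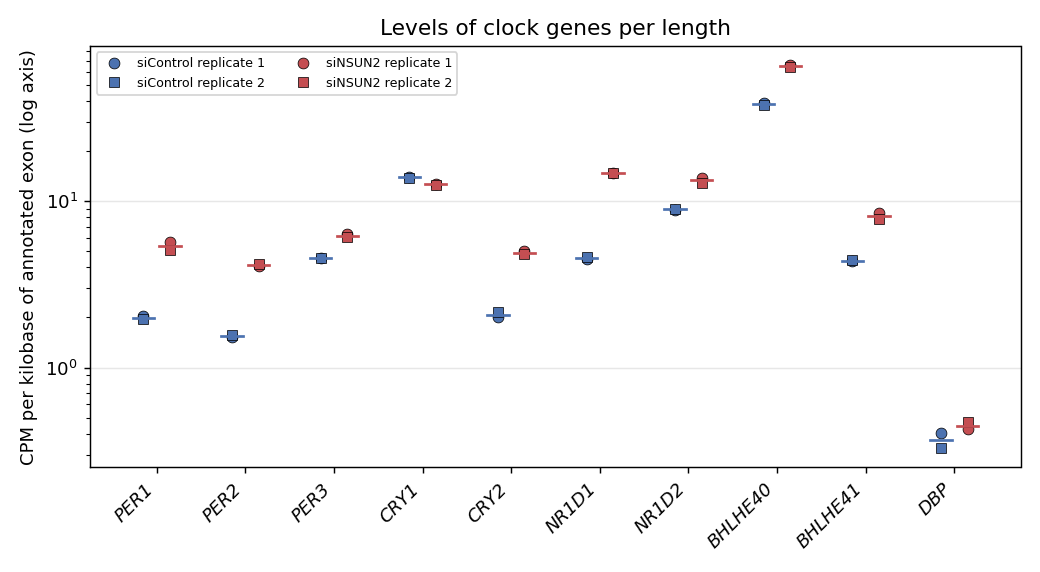
Level of each clock gene per kilobase of annotated exon, in CPM per kilobase on a log axis, for each library; marks are as in the plot of CPM. BHLHE40 is the highest and DBP the lowest in both groups, and NR1D1 moves from 4.55 to 14.8.

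Ordered by CPM per kilobase of exon, the siControl cells had BHLHE40 first (38.4 ± 0.798), then CRY1 (13.9 ± 0.263) and NR1D2 (8.93 ± 0.104). NR1D1 (4.55 ± 0.110), PER3 (4.54 ± 0.019) and BHLHE41 (4.39 ± 0.025) followed, of which NR1D1 and PER3 did not differ beyond their spread. CRY2 (2.08 ± 0.109) and PER1 (2.00 ± 0.060) also did not differ beyond theirs, and PER2 (1.56 ± 0.031) and DBP (0.365 ± 0.054) were lowest. In siNSUN2 cells BHLHE40 was still first (65.1 ± 0.941), and NR1D1 (14.8 ± 0.109) was second. NR1D2 (13.3 ± 0.743) and CRY1 (12.6 ± 0.150) came next and differed by less than the SD of NR1D2. They were followed by BHLHE41 (8.15 ± 0.526), PER3 (6.21 ± 0.166), PER1 (5.40 ± 0.453), CRY2 (4.91 ± 0.125), PER2 (4.15 ± 0.099) and DBP (0.447 ± 0.030). Exon lengths are those of all annotated exons merged, which need not be the exons used in T24 cells. No level per kilobase was corrected for GC content, so these orders, such as NR1D1 above NR1D2 in siNSUN2, hold for uncorrected values only.

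The activators of the clock, which are not among the 10, went both ways, as all genes did (27.1% higher, 25.5% lower). Of the 7 listed, 5 were measured: 1 was called higher, 2 were lower and 2 were not called, with a median log2 ratio of −0.15. CLOCK, the DNA-binding partner of BMAL1, rose from 51.7 ± 2.71 to 73.4 ± 2.48 CPM (log2 ratio 0.50, SE 0.051, adjusted p = 2.85e-05). NPAS2, a relative that can replace CLOCK, fell from 9.75 ± 1.40 to 5.78 ± 0.335 CPM (−0.76, SE 0.12, adjusted p = 6.54e-04). BMAL2, a relative of BMAL1 and the most abundant activator per kilobase of exon, fell from 117 ± 1.81 to 78.8 ± 2.98 CPM (−0.57, SE 0.044, adjusted p = 5.20e-06). BMAL1 itself, the gene that REV-ERB receptors repress, stood at 20.5 and 19.2 CPM in siControl and at 19.0 and 16.7 CPM in siNSUN2. It did not pass (log2 ratio −0.15, SE 0.078, adjusted p = 0.15), though it was called at −0.25 without siNSUN2 replicate 1 (adjusted p = 0.0491), and it was 0.038 after GC correction. Of the ROR genes, whose receptors activate BMAL1, RORA was at 0.218 to 0.497 CPM and not called, and RORB was too low to be tested.

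Of the relatives and the rival of DBP, 2 of 3 were called higher, where 27.1% of all genes were. TEF, a PAR bZIP activator like DBP, rose from 9.41 ± 0.041 to 21.3 ± 1.63 CPM (log2 ratio 1.18, adjusted p = 1.72e-06). Per kilobase of exon, TEF stood at 2.00 and 1.99 CPM in siControl and at 4.77 and 4.28 CPM in siNSUN2, above DBP in every library. NFIL3, a repressor of the same D-boxes, rose from 18.3 ± 0.967 to 27.1 ± 0.645 CPM (0.56, adjusted p = 6.13e-05). HLF was under 0.4 CPM in every library and was not called (−1.11, adjusted p = 0.154).

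Among 8 genes known to be driven by the clock in other tissues, 7 were measured, of which 6 rose and 0 fell (median log2 ratio 0.85). Of all genes tested, 27.1% were called higher and 25.5% lower (median 0.026). Like the other lists, this one was chosen with earlier results of these data known, so the counts are descriptive only. WEE1, the kinase that holds back entry into mitosis, rose from 88.7 ± 1.47 to 160.0 ± 1.66 CPM (log2 ratio 0.85, adjusted p = 3.29e-07). CDKN1A, which encodes p21 and is also a p53 target, rose by 1.11 on the log2 scale (adjusted p = 9.53e-08). TSPO, of the outer mitochondrial membrane, rose by 1.14, and by 0.65 after GC correction. NAMPT, the rate-limiting enzyme of NAD salvage and a textbook target of CLOCK and BMAL1, stood at 119 ± 5.56 and 118 ± 0.625 CPM, with overlapping groups, and was not called (−0.018, adjusted p = 0.783). It was called lower without siControl replicate 1 (−0.13, adjusted p = 0.0435). After GC correction the count was again 6 of 7, where 23.3% of all genes were called higher. NAMPT had joined the 6 (0.26, adjusted p = 0.00119). POR, the electron donor of the cytochrome P450 enzymes, had left them (0.55 before, 0.070 after, adjusted p = 0.166).

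Of 15 regulators that modify or bind clock proteins, 8 were called higher, 4 lower and 3 neither, where 27.1% and 25.5% of all genes were. CSNK1D, the casein kinase that marks PER proteins for decay, rose by 0.51 on the log2 scale (adjusted p = 5.63e-06). Of the catalytic subunits of protein phosphatase 1, PPP1CA rose by 0.59 (adjusted p = 2.45e-06) and PPP1CC fell by 0.43 (adjusted p = 1.44e-05). These 3 changes were smaller after GC correction, at 0.16, 0.14 and −0.24. PPP1CB, which encodes the other catalytic subunit, was called higher by a narrow margin (0.24, adjusted p = 0.0482). Its log2 ratio was 0.51 after GC correction, and its call was lost without siControl replicate 1 (0.068), siNSUN2 replicate 1 (0.24) or siNSUN2 replicate 2 (0.25).

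The CREB arm is the route by which cAMP induces PER1 and PER2. Of its 6 genes, 4 were called higher and 0 lower, where 27.1% and 25.5% of all genes were. After GC correction, 23.3% of all genes were called higher and 23.5% lower. The median ratio of the arm on the log2 scale was 0.40, or 0.18 after the correction. SIK1, a CREB target whose kinase restrains the coactivators of CREB, stood at 18.8 and 20.3 CPM in siControl and at 88.5 and 92.8 CPM in siNSUN2. Its log2 ratio of 2.21 (adjusted p = 1.75e-08) was above that of every member. The coactivator genes CRTC1 and CRTC2 rose by 0.72 and 0.58 on the log2 scale. After GC correction, CRTC2 was at 0.20 and CRTC1 was no longer called (0.15, adjusted p = 0.30). CRTC3, also among the 4, went from 0.23 to 0.038 (adjusted p = 0.622). CREB1 (0.13 before, 0.36 after) and CREM (−0.10 before, 0.16 after) came to be called (adjusted p = 0.00209 and 0.0335), so that the 4 genes called after the correction were not all those called before. For the glucocorticoid receptor and its targets, 1 of 3 measured genes was called higher, where 27.1% of all genes were. TSC22D3, a classical target, rose by 0.27 on the log2 scale (adjusted p = 0.0173), a call lost after GC correction (adjusted p = 0.107) and without any of siControl replicate 1, siControl replicate 2 or siNSUN2 replicate 1 (adjusted p = 0.0669, 0.145 and 0.13). FKBP5 (−0.11, adjusted p = 0.398) and the receptor gene NR3C1 (−0.085, adjusted p = 0.158) were not called. NR3C1 was called at −0.17 without siControl replicate 1 (adjusted p = 0.0136) and at 0.11 after GC correction (adjusted p = 0.0471).

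The 6-base word ACCCTA was searched in the longest annotated 3′ UTR of each member, by transcript sequence. It was in 2 of the 10, CRY2 and DBP, and in 23% of the 12572 genes tested whose 3′ UTR was searched. The 2895 genes with the word had a median log2 ratio of −0.16, and the 9677 without it had 0.092. These sets were not matched for 3′ UTR length or GC content, and a link between the word and the changes was not tested. CRY2, which rose, holds it at 2 places, and DBP, which was not called, at 1. The sites are shown with the word in capitals.
CRY2 first site: cgtagtggtaggACCCTAgctgggattctg
CRY2 second site: aaagtttccaccACCCTAcagaagtacaca
DBP site: ggcacgtcagggACCCTAtcctcccaccgc
CRY1, with a searched 3′ UTR of 638 bases, has no match, nor have the other 7 members.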

How the data were processed

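Libraries were stranded, made from poly(A) RNA and read from both ends, per the labels' protocols. The authors deposited raw counts per Ensembl gene, 1 column per library, and per the submitters' processing notes HISAT2, HTSeq and the build hg19 were used. For the versions, the annotation and the strand setting: not given in the sources used here. Symbols were found for 51226 of 62893 gene IDs. The printed coordinates come from RefSeq windows on GRCh38.p14 alone, while exon length, GC content and 3′ UTRs come from GENCODE release 29 by gene ID. Exon positions of that release also gave the overlaps between genes and the exon bases within the promoter windows. No coordinates were carried over from the counts.

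The filter filterByExpr kept 16889 genes with 99.96% of the counts, and edgeR 4.0.16 in R 4.3.3 (TMM factors 0.985 to 1.02, robust quasi-likelihood F-test, no block, two-sided, Benjamini-Hochberg over all genes tested, threshold 0.05) was fitted to all 4 libraries. Standard errors come from the F statistic. The deepest library held 6.42 times the counts of the shallowest, in which low genes had few counts (105 for DBP). The test was checked on simulated data without a GC trend, so that check does not cover the GC trend seen here. The GC and length correction uses loess offsets per library (span 0.3) and values for 96.4% of the genes tested. Alternatives were DESeq2 1.42.0, limma-voom (limma 3.58.1), other scaling, filters, thresholds, thinning, the replicate block and each library left out. Members and lists were chosen with earlier results of these data known. All members and activators, the 3 other listed genes per role with the smallest p, NSUN2 and overlapping genes were named by rule. NAMPT, POR, PPP1CB, CRTC3, CREB1, CREM and single markers were named after their values were seen. Some genes of the lists are not reported here.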

Additional observations from a re-analysis of the deposited data

How the results depend on the processing

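Of the 10 clock genes, 8 (all but CRY1 and DBP) kept their direction and their call in all 17 alternatives, and 8 or 9 were called higher in each. The number called lower was 1, and it was 0 without a low-count filter, with libraries thinned to the shallowest, against a fold of 1.2, at an adjusted p of 0.01 and with GC content and length trends removed, with or without the block; leaving out single libraries gave 0 to 1. CRY1 turned to 0.15 in both GC fits and DBP to −0.074 and −0.071. BMAL1 turned to 0.038 and 0.031 there, NR3C1 to 0.112 and 0.111, CREM to 0.160 and 0.159, NAMPT to 0.259 and 0.261, FKBP5 to 0.044 and 0.036, and THRA from 0.023 to −0.448 and −0.451. NAMPT was also at 0.00029 without a low-count filter, 0.0122 thinned and −0.130 to 0.0133 with single libraries left out. Leaving out single libraries gave −0.231 to 0.00173 for FKBP5, −0.0885 to 0.0831 for THRA and −0.459 to 0.712 for RORA, which was −0.028 with limma-voom. Partner genes called lower numbered 6, and 6 to 10 with a library left out (10 without siControl replicate 1, a setting that moved all shared genes by a median of −0.067). Against a fold of 1.2, 2913 genes were called higher and 2529 lower. The causes were not tested. The replicate number is not said to mark a shared culture or day, so it was not taken as a pairing. Same-numbered libraries deviated together only weakly (correlation 0.156 over genes), but 2 pairs cannot settle whether they were paired. With the replicate block, 8 members were called higher, 1 lower, and 5027 and 4788 of all genes. DBP had 105 counts in the shallowest library, and its standard error of 0.19 was the largest of the 10 genes.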
